A study of Mus musculus with 2 samples.

Results

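The genes described here encode the receptors by which natural killer (NK) cells read other cells and the cytotoxic proteins they store in granules. They were taken from the deposited array table by gene symbol: every Klr gene of subfamilies a to k, every granzyme (Gzm), and Ncr1, Prf1 and Nkg7. The pattern found 39 of 24646 symbols, each on a single transcript cluster. Of these, 26 were classed as receptor genes, including the pseudogenes Klrb1-ps1, Klra11 and Klra14, and 12 as granule genes. The remaining symbol, Klraq1, carries the letters of the pattern but is an older name of Ppp1r21, a regulatory subunit of protein phosphatase 1, so its values are given apart.

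The study compared 2 samples of stromal cells sorted from mouse mammary glands at 10 weeks of age. Both samples carry Fsp1-Cre, a Cre recombinase under the promoter of Fsp1 (S100a4), and the Rosa26 mTmG reporter, and the sort collected the GFP-positive cells that Cre had marked. The control sample is Gli2WT and the ablated sample, from a littermate, is Gli2∆S, in which the hedgehog transcription factor Gli2 was ablated in the stroma. Each group holds 1 sample from 1 animal, so no difference below has a replicate check, no test was possible, and genotype cannot be told apart from any other difference between these animals or preparations. Whatever cells turn on Fsp1-Cre enter the gate.

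NK receptors fall into activating and inhibitory kinds. Activating receptors such as NKG2D and NKp46 lack signalling motifs of their own and pass their signal through adaptor proteins, whereas inhibitory receptors recruit phosphatases and hold killing back when they meet MHC class I or related molecules. Most of the lectin-like receptors lie together on mouse chromosome 6, in the natural killer gene complex. A triggered cell empties its granules: perforin opens the target membrane and granzymes, a family of serine proteases, enter and cleave proteins inside. Many of these genes are shared with cytotoxic T cells and innate lymphoid cells.

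The values are log2 signals, and every difference is the ablated sample minus the control sample. The table gives no call of which signals exceed background, so a gene is called dim here if the mean of its 2 signals lies below 6.34, the median of that mean over all symbols. Of the 38 receptor and granule genes, 13 reached that level (8 receptors and 5 granule genes) and 25 were dim. Array signals of different genes cannot be compared as amounts, so signals are compared only between the 2 samples. Sums of linear signals over a list are likewise read only between samples, and the brightest genes weigh most in them. Over all symbols the median difference was 0, with a spread (scaled median absolute deviation) of 0.22, and the middle 95% of differences ran from -0.67 to 0.54.

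Receptor genes leaned towards higher signals in the ablated sample, while granule genes as a class stayed close to all symbols. Of 26 receptors, 17 were higher and 9 lower, with a median difference of 0.26. Of 12 granule genes, 8 were higher and 4 lower, with a median of 0.07, smaller than the spread of 0.22. After quantile or loess scaling 7 of the 12 were higher. Over all symbols 50% were higher and 47% lower. The gap between the medians was 0.20, and with 1 array a group it has no error estimate. It was 0.32 without the Ly49 genes, and 0.12 with Klrb1 and Klrh1 added, which are NK receptors that the table lists under older symbols.

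A fold of at least 2 towards the ablated sample was found in 2 of the 38 genes, Klrb1a and Klra9, both dim, against 0.304% of all symbols. None of the 38 was at least 2-fold lower, against 0.933% of all symbols. At 1.5-fold, 8 were higher and 1 was lower, where the shares of all symbols were 1.72% and 3.3%. All 9 of those were in the receptor class, and no granule gene was 1.5-fold apart. The 9 include the pseudogene Klrb1-ps1, and Klrb1a and Klra10, whose clusters are annotated to more than 1 gene. Of those 9, only Klrk1, Ncr1 and Klrc1 were not dim. The symbols were also split into 10 equal bins of mean signal, since scatter depends on signal. The spread was 0.28 in the dimmest bin and 0.15 in the brightest. The middle 95% of the brighter bins ran further down than up, as from -0.94 to 0.45 in bin 8, counted from the dimmest. A bright gene thus needed a larger difference to lie below its bin than above it. Above the middle 95% of their own bin lay 8 of 26 receptors and 0 of 12 granule genes, where 2.47% of all symbols do. Below it lay 1 receptor, Klrb1b, where 2.46% of all symbols do.

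**Figure D1:**
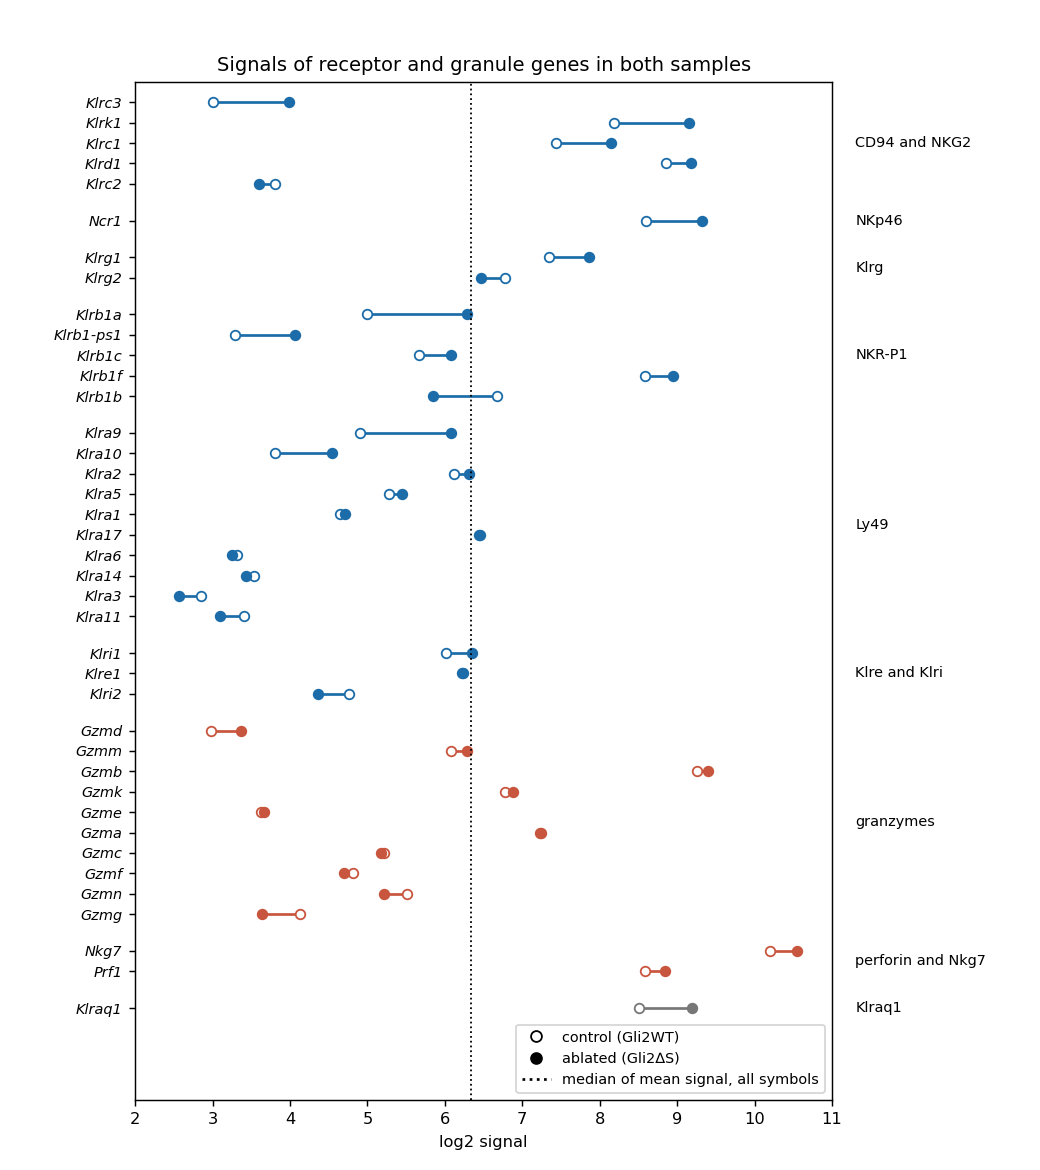
Log2 signal of each gene in the control sample (open circles) and the ablated sample (filled circles), 1 array each, with receptors in blue, granule genes in red and Klraq1 in grey. The dotted line marks 6.34, the median of the mean signal over all symbols. Klrk1, Ncr1, Klrc1 and Klrg1 lie right of the line with the ablated sample clearly to the right of the control, while the circles of Gzma, Gzmk and Gzmb nearly touch.

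The activating receptors NKG2D and NKp46 had the largest differences among genes of the set that were not dim. The inhibitory receptor gene Klrc1, at 0.71, was nearly level with NKp46. Klrk1, which encodes NKG2D, a receptor for MHC-like molecules that stressed cells display, had log2 signals of 8.19 (control) and 9.15 (ablated). Its difference of 0.96 is a 1.95-fold higher signal, and 0.332% of the 12342 symbols that were not dim had a larger one. Ncr1, which encodes NKp46 and in mice marks NK cells and some innate lymphoid cells, had 8.60 and 9.32, a difference of 0.72 (1.65-fold). Both lay above 0.43, the upper bound of the middle 95% in their bin. In the authors' deposited table, where a negative signed fold means a higher signal after ablation, Klrk1 stood at -1.95 and Ncr1 at -1.65.

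The promoters of Klrk1 and Ncr1 are shown beside those of Gzmb and Prf1, the granule genes of the best known killing pathway, whose differences were smaller. Each is the stretch from 250 bases before to 50 bases after the transcription start in RefSeq (GRCm38.p6), on the gene's strand: chr6:129623815-129624114 (minus strand), chr7:4337465-4337764 (plus strand, the upstream of 2 listed starts), chr14:56262285-56262584 (minus strand) and chr10:61297586-61297885 (plus strand). Capitals mark matches on either strand to short cores bound by factors of killer lymphocytes: the RUNX core TGTGGT, the ETS core GGAAGT and the T-box core GGTGTG.
Klrk1: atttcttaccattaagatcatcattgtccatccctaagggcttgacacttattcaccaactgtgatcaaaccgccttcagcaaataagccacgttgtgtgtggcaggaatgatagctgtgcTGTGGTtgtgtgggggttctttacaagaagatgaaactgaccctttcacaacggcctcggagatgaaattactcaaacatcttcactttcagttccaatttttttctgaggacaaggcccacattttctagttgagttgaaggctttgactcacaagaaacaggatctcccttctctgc
Ncr1: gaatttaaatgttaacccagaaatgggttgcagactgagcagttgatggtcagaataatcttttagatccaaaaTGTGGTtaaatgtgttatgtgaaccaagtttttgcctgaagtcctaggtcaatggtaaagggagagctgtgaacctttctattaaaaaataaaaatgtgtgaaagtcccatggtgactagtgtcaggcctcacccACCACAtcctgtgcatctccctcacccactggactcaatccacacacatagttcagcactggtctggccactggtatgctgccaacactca
Gzmb: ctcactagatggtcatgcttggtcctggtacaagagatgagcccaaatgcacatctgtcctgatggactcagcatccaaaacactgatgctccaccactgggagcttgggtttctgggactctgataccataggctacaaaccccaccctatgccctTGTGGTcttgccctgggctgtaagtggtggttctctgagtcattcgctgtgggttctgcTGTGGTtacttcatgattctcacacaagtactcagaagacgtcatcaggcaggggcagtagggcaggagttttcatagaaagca
Prf1: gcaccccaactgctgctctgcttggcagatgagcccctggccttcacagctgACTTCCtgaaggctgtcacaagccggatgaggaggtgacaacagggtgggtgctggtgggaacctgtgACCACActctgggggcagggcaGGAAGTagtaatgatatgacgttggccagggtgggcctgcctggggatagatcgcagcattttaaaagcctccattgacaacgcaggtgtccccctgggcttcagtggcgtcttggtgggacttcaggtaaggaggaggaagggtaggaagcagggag
The RUNX core occurred 1 time in the Klrk1 stretch, 2 times each in those of Ncr1 and Gzmb and 1 time in that of Prf1. The ETS core occurred 2 times in the Prf1 stretch and in none of the other 3, and the T-box core was not found in any of these 4 windows. Promoters of 32 members were in the RefSeq table. The RUNX core stood in 10 of 12 granule genes and 9 of 20 receptor genes, counting any listed start, against 18.9% of all 27025 genes in that table. The ETS core stood in 7 of 12 and 4 of 20, against 26.5% of all genes, and the T-box core in 5 of 12 and 4 of 20, against 21.4%. Letters can be shared where GGTGTG runs into TGTGGT. Related granzyme promoters are copies of each other in part, so these counts are not independent, and a match shows letters, not binding.

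CD94 and its NKG2 partners did not differ equally. Klrc1, the inhibitory chain NKG2A, which with CD94 reads the class Ib molecule Qa-1, had signals of 7.44 and 8.15, a difference of 0.71 (1.64-fold) that lay above the middle 95% of its bin. Its obligate partner Klrd1, CD94, had 8.85 and 9.18, and that difference of 0.33 lay inside the range of its bin. The remaining NKG2 chains were dim. Klrc3, NKG2E, had 3.0 and 3.99, a difference of 0.99, while its close relative Klrc2, the activating chain NKG2C, had a difference of -0.21. Klrc2 and Klrc3 lay in the dimmest bin of signal, where the middle 95% of all symbols ran from -0.62 to 0.74.

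Klrg1, an inhibitory receptor for cadherins that marks mature NK cells and effector T cells, was higher in the ablated sample, at 7.35 and 7.86. Its difference of 0.51 lay just above 0.45, the upper bound in its bin. Klrg2, which shares the name, was lower, at 6.78 and 6.46 (difference -0.32).

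The NKR-P1 receptors, which read lectins of the Clec2 family, spread most widely. Klrb1f was the member of this family that was not dim, with 8.59 and 8.95 and a difference of 0.36, inside the range of its bin. Klrb1a had 5.0 and 6.28, a difference of 1.28 (2.43-fold), but its transcript cluster is annotated to Klrb1a and Klrb1c together. The cluster listed for Klrb1c alone, which encodes the NK1.1 antigen, had a difference of 0.41. Against these stood Klrb1b, an inhibitory receptor for Clec2d, with 6.67 and 5.84. Its difference of -0.83 was the lowest of the 38 genes and lay below the range of its bin, -0.60 to 0.53. The pseudogene Klrb1-ps1 had 3.29 and 4.07, a difference of 0.78.

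Ly49 receptors, the rodent receptors for MHC class I, were almost all dim. Of 10 Ly49 genes, 5 were higher and 5 lower, with a median of 0.03. Klra9, the inhibitory receptor Ly49I, stood apart at 4.91 and 6.08 (difference 1.17, 2.25-fold), followed by Klra10, Ly49J, at 3.80 and 4.54 (difference 0.74). Klra11, which RefSeq lists as a pseudogene, had 3.41 and 3.09, a difference of -0.32. The Ly49 gene that was not dim, Klra17, encodes Ly49Q, a receptor better known from plasmacytoid dendritic cells than from NK cells. It had 6.45 and 6.44, a difference of -0.01. The cluster under Klra1 is annotated to 9 Ly49 genes, among them Klra4 and Klra7, and those of Klra3, Klra6 and Klra10 also to more than 1, so these signals cannot be assigned to single receptors. Ly49 loci also differ in gene content between mouse strains, and no strain is given in the labels used here.

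The remaining receptors, Klre1 and its alternative partners Klri1 and Klri2, known from rodents, were all dim. Klri2 was lowest, at 4.76 and 4.36 (difference -0.40), with Klri1 at 0.33 and Klre1 at 0.01. The 10 receptors not given with both signals above had differences from -0.29 to 0.41, 6 of them higher and 4 lower, at control signals of 2.85 to 6.22 and ablated signals of 2.56 to 6.35. Klraq1, the gene now called Ppp1r21, had 8.51 and 9.19, a difference of 0.68. It lies on chromosome 17 and is no NK receptor.

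Granule genes differed little between the samples. Gzmb, granzyme B, the protease that cuts after aspartate and activates caspases, had 9.25 and 9.40, a difference of 0.15. Gzma, granzyme A, which cuts after basic residues, had 7.23 and 7.24, a difference of 0.01. Gzmk, granzyme K, had 6.78 and 6.88, a difference of 0.10. These are the granzymes that were not dim, and all 3 differences were smaller than the spread over all symbols.

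The partners of the granzymes had somewhat larger differences. Prf1, perforin, which forms the pore that lets granzymes through, had 8.59 and 8.84, a difference of 0.25 (1.19-fold). Nkg7, a protein of the granule membrane needed for efficient release, had 10.20 and 10.55, a difference of 0.35 (1.27-fold). Both lay inside the middle 95% of their bins, whose upper bounds were 0.43 and 0.47.

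The granzyme genes of chromosome 14, Gzmb to Gzmg and Gzmn, are a cluster of duplicated genes that mouse killer cells use in part only after strong activation. Apart from Gzmb they were all dim and went both ways. Gzmd had 2.98 and 3.37 (difference 0.39), whereas Gzmg had 4.13 and 3.64 (-0.49). Gzmn had 5.51 and 5.21 (-0.30), and Gzmf had 4.81 and 4.70 (-0.11). Over the 7 genes of this cluster the median was -0.04. The 3 other granzymes, Gzmc, Gzme and Gzmm, had differences from -0.04 to 0.20.

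Set side by side among genes that were not dim, 5 of 8 receptors had a larger difference than any of the 5 granule genes: Klrk1, Ncr1, Klrc1, Klrg1 and Klrb1f, the last of these by only 0.01 over Nkg7 and with an equal deposited fold. In 29 of all 40 pairs of a receptor with a granule gene the receptor had the larger difference. Klrd1 lay among the granule genes and Klrg2 and Klra17 below all of them. Of these 13 genes 11 were higher, where 53% of all symbols that were not dim were. The medians were 0.44 for the receptors and 0.15 for the granule genes, against 0.02 for all symbols that were not dim. With 1 array a group these are descriptions, and the gap between classes was not tested.

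**Figure D2:**
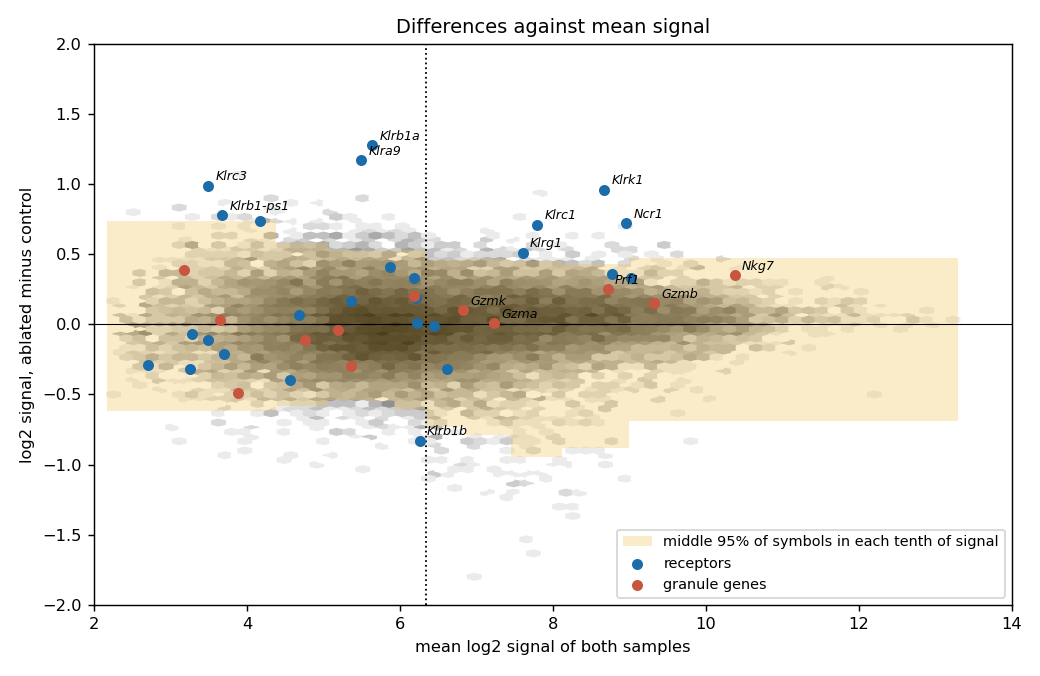
Difference of log2 signal (ablated minus control) against the mean log2 signal of both samples, for all symbols (grey, darker where denser), receptors (blue) and granule genes (red). The shaded band is the middle 95% of symbols in each of 10 bins of mean signal, the dotted line lies at 6.34, and symbols beyond 2 in either direction are not drawn. Of the receptors 8 lie above the band and Klrb1b below it, while all 12 granule genes lie inside.

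Receptor genes that lie next to each other on chromosome 6 did not all differ alike. Between Klrb1a and Klra2, the outermost genes of the natural killer gene complex, 50 genes of the RefSeq order had a signal, 23 of them receptors of the set. Of these 23 receptors 15 were higher and 8 lower, with a median of 0.19, but only 5 of the 23 were not dim. Of the 27 other genes, Klrb1 and Klrh1 among them, 9 were higher and 17 lower, with a median of -0.06. Of those 27, 12 were not dim. The neighbours Klrd1, Klrk1, Klrc3, Klrc2 and Klrc1 had a median of 0.71, and the 18 other receptors of the interval 0.12. The stretch of 11 genes between Cd69 and Klre1 had 10 genes lower and 1 higher, with a median of -0.21. It includes the myeloid lectins Clec7a (-0.69), Olr1 (-0.62) and Clec9a (-0.61). These and the lower genes Clec12a and Gabarapl1 were not dim, and the rest of the stretch was dim.

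**Figure D3:**
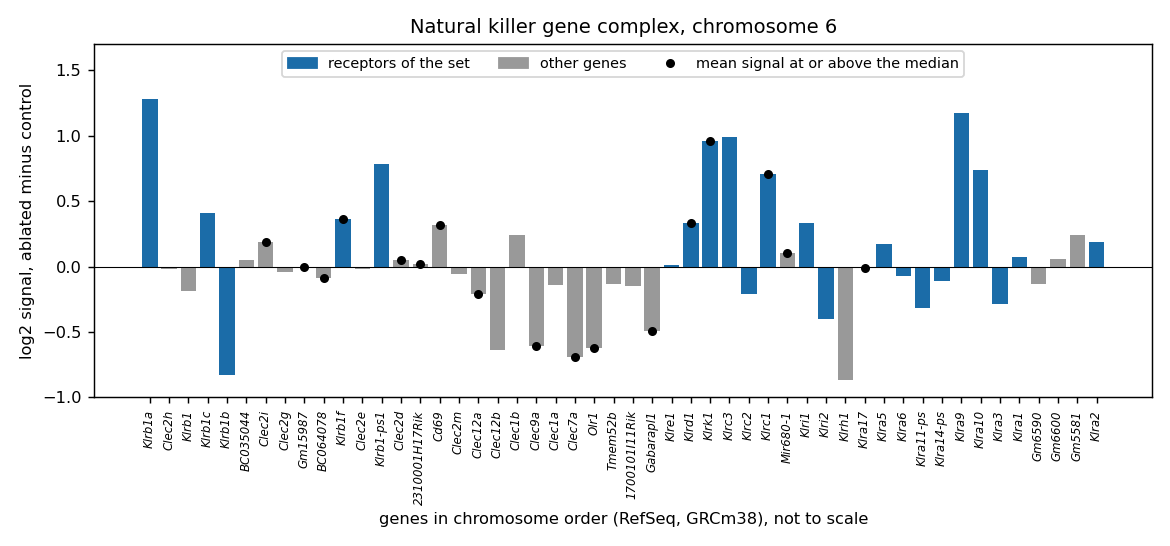
Difference of log2 signal (ablated minus control) for 50 genes of the natural killer gene complex in chromosome order, not to scale, with receptors of the set in blue, other genes in grey and black points on genes that were not dim. Bars from Klrd1 to Klrc1 point up except Klrc2, and 10 of the 11 bars between Cd69 and Klre1 point down.

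Genes that work with these receptors and granules were taken from lists covering adaptors, other receptors, ligands, the release machinery and transcription factors. The adaptors and kinases differed little: 11 of 15 were higher, with a median of 0.08. Hcst, or DAP10, an adaptor of NKG2D, had 7.19 and 7.46 (difference 0.27), while Tyrobp, the adaptor DAP12, which macrophages also use, had 9.18 and 8.97 (-0.21). The kinases Syk and Lck each had a difference of 0.25, and the adaptor Fcer1g, which serves NKp46, had 0.02.

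Of 23 other NK receptors, 17 were higher and 6 lower, with a median of 0.08. Tigit, an inhibitory receptor of NK and T cells, had 8.50 and 9.09 (difference 0.59), and Cd226, the activating receptor that competes for its ligands, had 8.41 and 8.77 (0.36). The cytokine receptors Il21r (-0.41) and Il15ra (-0.32) were lower. On the target side, 8 of 18 ligands were higher and 10 lower, with a median of -0.02. Among them were the NKG2D ligands H60b (0.32), H60a (0.24) and Ulbp1 (-0.12), the Qa-1 gene H2-T23 (-0.01) and the NKR-P1B ligand Clec2d (0.05). Cdh1, E-cadherin, a ligand of Klrg1, was lower (-0.37), and so were Cdh2 (-0.30) and Pvr (-0.27).

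Transcription factors of NK cells and innate lymphoid cells were higher in 12 of 13 cases, with a median of 0.17. Eomes, which with T-bet directs NK cell maturation, had 7.31 and 7.92 (difference 0.61), ahead of Gata3 at 0.42. Nfil3, needed for NK cell development, had 0.26, Tbx21, which encodes T-bet, had 0.20, and Irf8 was lower at -0.25. Integrins and other surface genes of these cells were split, 8 higher and 7 lower (median 0.01, or -0.04 after loess scaling), with Itga1, which fibroblasts also express, at -0.62, Cd69 at 0.32, and Itgam at 0.26.

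Among killer cytokines and death ligands, 9 of 11 were higher, with a median of 0.19. Il2, a growth factor made by T cells, had 5.89 and 7.06 (difference 1.17), and Xcl1, a chemokine of NK and CD8 T cells, had 8.71 and 9.55 (0.84). Ifng, interferon gamma, had 7.61 and 8.11 (0.50), and the death ligand Fasl had 7.27 and 7.5 (0.23). The lower genes of this list were Csf2, at 6.92 and 6.66 (-0.26), and Ccl4 (-0.12). In granule maturation and release, 8 of 14 genes were higher and 6 lower, with a median of 0.07. Rab27a, a GTPase that docks granules, had 8.41 and 9.14 (0.73), whereas Cd63, a granule membrane protein found in most cells, had 10.02 and 9.08 (-0.94). Ctsw, a cathepsin of killer cells, had 0.42. Of 5 serpins that can block granzymes, 4 were higher, among them Serpinb6b (0.21), while Serpinb9, the inhibitor of granzyme B, had -0.10.

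**Figure D4:**
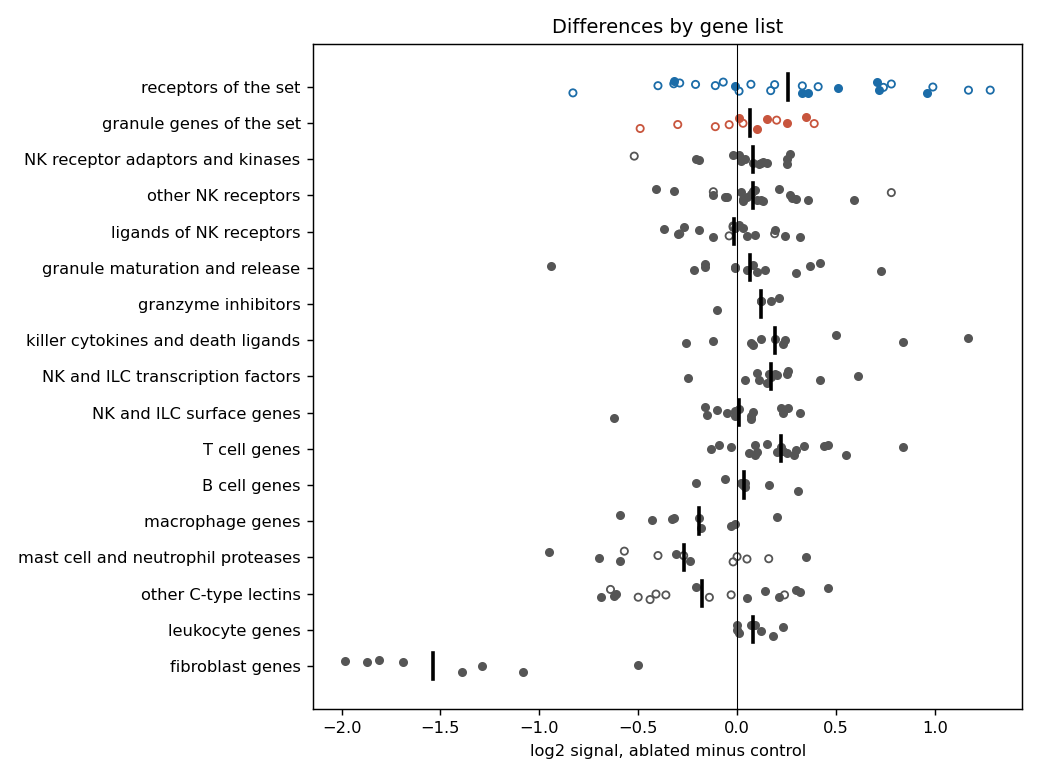
Differences of log2 signal (ablated minus control) for each gene, by list, with receptors of the set in blue, granule genes of the set in red and companion lists in grey. Filled points are genes that were not dim, open points dim genes, and black bars the medians, which were 0.26 for receptors, 0.07 for granule genes, 0.22 for T cell genes and -1.54 for fibroblast genes.

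Markers of other cells differed as well. Of 19 T cell genes, 16 were higher in the ablated sample (median 0.22), and their summed linear signal was 20613.8 in the control and 23819.6 in the ablated sample. They included Cd3e (11.09 and 11.43), Cd8a (9.73 and 9.93), Cd8b1 (10.04 and 10.50), Foxp3 (9.18 and 9.73) and Ctla4 (7.70 and 8.54). The 3 lower T cell genes were Thy1 (difference -0.13), Tcf7 (-0.09) and Cd4 (-0.03). Of 8 fibroblast genes, 8 were lower, with a median of -1.54 and summed linear signals of 13243.6 and 6954.58, led by Pdgfra (9.69 and 7.71). Of 9 macrophage genes, 8 were lower (median -0.19, sums 6224.34 and 5414.03). B cell genes had a median of 0.04 over 8 genes (-0.01 after loess scaling), with sums of 11751.5 and 11713.4. General leukocyte genes had 6 of 8 higher and 0 lower, with a median of 0.08 and sums of 15721.6 and 16472.9. Arrays give no zero, so no marker can be called absent. In these samples, labelled stromal, none of the 19 T cell, 8 B cell and 8 fibroblast genes was dim. In bulk RNA, more cells of a type and more RNA per cell cannot be told apart, and the part of T cells, other lymphocytes or fibroblasts in the receptor differences was not tested.

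S100a4, whose promoter drives the Cre, had signals of 8.16 and 7.98. Gli2 itself had 5.94 and 5.32, both dim, and where its probes lie relative to the deleted part is not stated in the labels.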

How the data were processed

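Biotinylated RNA of each sample was hybridised to an Affymetrix array, per the labels' protocols. The authors deposited a log2 signal (a bi-weight average, per the file headers) for 41345 transcript clusters, 27036 with a gene symbol, and a signed linear fold. Transcriptome Analysis Console is named, without version, in the submitters' processing notes. The sources used here do not give the array design, background correction, normalization or build, and a shift shared by all genes could be hidden by normalization. The number of arrays limits the precision.

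For each symbol the cluster with the highest mean signal was kept. With 1 sample a group, differences of the deposited log2 signals were described, with no test. The members and gene lists were chosen with earlier results of these data known. Both signals are given for members that were not dim, were at least 1.5-fold apart, or had the 3 highest or lowest differences of their class. In companion lists, up to 4 genes with the largest differences among those that were not dim, all 2-fold apart, and up to 4 genes at the head of a list could be named. Genes named outside that rule, chosen after their values were seen, are Cd8a, Cd4, Thy1, Tcf7, Ccl4, Ulbp1, H60a, H2-T23 and Clec2d. Further ones are Clec12a, Gabarapl1, Klrb1c, Klrc2, Klri1, Klre1, Klrb1 and Klrh1. Gene order, synonyms and promoters came from RefSeq (GRCm38.p6), which matched 36 members by symbol, 2 by synonym and 1 by accession. Steps were tested on simulated data. The software was Python 3.11.15 with pandas 2.3.3, numpy 2.4.6, matplotlib 3.10.9 and statsmodels 0.14.6.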

Additional observations from a re-analysis of the deposited data

How the results depend on the processing

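No paired analysis was possible because each group held 1 sample, and for the same reason no sample could be left out. Quantile scaling and loess scaling (span 0.3) left every class median and count of members within the spread of 0.22 or 1.5 times. Centring on the median and averaging all clusters of a symbol could not change member differences. The median over all symbols was already 0, and each member has a single cluster. For members, the deposited fold and the series matrix values are the same measurements at other rounding, so their closeness is no separate check. These settings shifted the median of all symbols by no more than 0.015. Among 25 members given with both signals, Gzma alone turned sign, between -0.02 and 0.01. The median of NK and innate lymphoid surface genes turned to -0.02 after quantile and -0.0405 after loess scaling, and that of B cell genes to -0.0091 after loess scaling. Among members that were not dim, 6 receptors and 5 granule genes were higher and 0 were 2-fold higher. With mean signal at or above the 75th percentile, the receptor median was 0.71, the gap between classes 0.46, 5 receptors and 3 granule genes were higher, and again 0 were 2-fold higher. Without Ly49 genes 1 member was 2-fold higher. At 1.5-fold the counts were 8 higher and 1 lower. Chosen after seeing the data were 3 alternatives: counting Klraq1 as a receptor (receptor median 0.33), leaving out shared clusters and pseudogenes (0.33), and adding the receptors Klrb1 and Klrh1 (0.18). Signal is a further limit, as 25 of 38 members were dim and not shown to exceed background.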

Other observations

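Granzymes belong to a larger family of granule serine proteases whose kin serve mast cells and neutrophils. Of 13 protease genes of those cells, all serine proteases except Cpa3, 9 were lower in the ablated sample and 3 higher, with a median of -0.27. Among the 6 that were not dim, 5 were lower and 1 higher, with a median of -0.45. The mast cell tryptase Tpsb2 had signals of 8.42 and 7.47 (difference -0.95), the zinc carboxypeptidase Cpa3 had 11.1 and 10.4 (-0.70), and the chymase Mcpt4 had 9.06 and 8.47 (-0.59), while the neutrophil proteinase Prtn3 had 6.34 and 6.69 (0.35).

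Other C-type lectins of leukocytes, relatives of the Klr receptors that serve mainly myeloid cells, had 11 of 18 genes lower and a median of -0.18, but among the 10 that were not dim 6 were higher and 4 lower, with a median of 0.10. Clec7a, the beta-glucan receptor Dectin-1, had 8.59 and 7.90 (-0.69), and Clec4e, the receptor Mincle, had 9.07 and 9.53 (0.46). A pair of NK receptor genes stands in the table under older symbols that the pattern does not reach: Klrb1, listed as 4930431A04Rik, had 5.98 and 5.79 (-0.19), and Klrh1, listed as Gm156, had 4.81 and 3.94 (-0.87), both dim.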
